A study of Mus musculus with 27 samples.

Results

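Pax3, Nkx2-5, Prdm8 and Isl2 are 4 mouse genes for developmental transcription factors that lie in chromatin kept silent by Polycomb in cells of other lineages. Each was followed through 1 fixed window of the mm9 build, given by the selection rule: chr1:78180000-78202000 for Pax3 (22 kb), chr17:26970000-26990000 for Nkx2-5 (20 kb), chr5:98590000-98620000 for Prdm8 (30 kb) and chr9:55380000-55400000 for Isl2 (20 kb). The windows held 177 of the 234651 peaks in 19 deposited lists, of which 118 were H3K27me3, 58 H3K4me3 and 1 UTX. The loci were selected on strong H3K27me3 by cell state and on H3K4me3 in doxycycline-treated fibroblasts, so those values are given as a description and support nothing further. H3K4me3 in pluripotent cells, UTX and the promoter sequence were not used in the choice. No annotation of mm9 was used, so peaks are placed by distance from the window centre and not by exon, intron or start site.

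The peaks came from chromatin immunoprecipitation and sequencing of 27 samples in 7 cell states, with 8 H3K27me3, 8 H3K4me3 and 3 UTX lists. Fibroblasts (MEF) were of the V19-OSKM line, in which doxycycline (dox) starts the reprogramming factors Oct4, Sox2, Klf4 and c-Myc, and were Utx+/Y (WT) or Utx-/Y (Utx-KO), each with and without dox. ES cells (ESC) were V6.5, Utx+/Y or Utx-/Y, with no dox. The last state was a pair of aberrant iPS clones, each 1 clone, from Utx-/Y V19-OSKM cells that were improperly reprogrammed and carried no dox at sampling according to the labels. The OSKM transgenes were thus shared by all MEF and iPS samples, and absent from the V6.5 description. The labels give 2i/LIF medium for both ESC and MEF. The dox exposure time was not given in the sources used here. A mark was profiled once per state, or once in each of the 2 iPS clones, so no difference below has a replicate check and none was tested.

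Polycomb repressive complex 2 trimethylates lysine 27 of histone H3 over broad domains of CpG-rich developmental genes, and UTX (Kdm6a) removes that mark. H3K4me3 marks promoters that are active or poised. In ES cells many developmental genes carry both marks at once, a state called bivalent. Pax3 is a paired-box factor of neural crest and muscle progenitors, and Nkx2-5 a homeobox factor of the early heart. Prdm8 belongs to the PR-domain family and acts in the nervous system, and Isl2 is a LIM-homeodomain factor of motor neurons. None of the 4 is a gene of fibroblast identity.

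The promoters below are shown because Polycomb domains form over CpG-rich DNA. They are RefSeq sequences of build GRCm38.p6, from 250 bases before to 50 after the start, 5′ to 3′ on the gene's strand, with each CG dinucleotide in capitals. RefSeq promoters were matched for 3 of the 4 genes, and Pax3 had no entry. Their positions, chr17:26841516-26841815 (minus strand), chr5:98180619-98180918 (plus) and chr9:55540899-55541198 (plus), belong to GRCm38 and cannot be set against the mm9 peaks.
Nkx2-5: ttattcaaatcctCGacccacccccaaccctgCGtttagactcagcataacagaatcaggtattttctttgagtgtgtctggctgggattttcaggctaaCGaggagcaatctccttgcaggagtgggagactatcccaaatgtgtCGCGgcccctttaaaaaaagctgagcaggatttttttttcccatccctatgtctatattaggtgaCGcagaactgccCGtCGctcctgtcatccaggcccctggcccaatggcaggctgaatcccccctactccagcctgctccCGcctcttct
Prdm8: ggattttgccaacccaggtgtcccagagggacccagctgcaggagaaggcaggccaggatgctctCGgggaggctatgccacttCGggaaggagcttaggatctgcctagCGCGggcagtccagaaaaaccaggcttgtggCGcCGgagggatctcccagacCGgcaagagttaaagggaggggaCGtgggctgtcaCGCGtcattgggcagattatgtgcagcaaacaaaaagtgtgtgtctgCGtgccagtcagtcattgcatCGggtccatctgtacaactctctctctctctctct
Isl2: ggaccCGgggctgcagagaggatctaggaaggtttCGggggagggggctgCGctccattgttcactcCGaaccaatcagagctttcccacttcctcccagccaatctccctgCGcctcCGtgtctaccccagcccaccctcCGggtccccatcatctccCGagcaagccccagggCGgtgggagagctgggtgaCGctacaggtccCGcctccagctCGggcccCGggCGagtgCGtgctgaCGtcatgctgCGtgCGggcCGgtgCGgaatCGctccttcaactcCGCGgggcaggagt
The Isl2 promoter held 23 CG dinucleotides in 300 bases, the Prdm8 promoter 12 and the Nkx2-5 promoter 9, against a median of 7 over 32851 promoters. At least as many were found in 21.5% of all promoters for Isl2, in 39.6% for Prdm8 and in 45.8% for Nkx2-5. The ratio of observed to expected CpG was 0.68 for Isl2, 0.49 for Prdm8 and 0.47 for Nkx2-5, beside a median of 0.38. The Nkx2-5 promoter, with a GC content of 51.7%, lay below the median promoter (52.7%), and Prdm8 (57.7%) and Isl2 (67.3%) lay above it.

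As a whole, the H3K27me3 lists held 135 to 36231 peaks and the H3K4me3 lists 16157 to 28232, and no read totals were used, so depth is unknown. Scores are the authors' own, and peak scores in general rise with both enrichment and depth. A score of 100 or more was reached by 2.35% of H3K27me3 peaks in WT MEF with dox, by none of the 135 in iPS clone 1, by 95.7% of the 737 in clone 2 and by 89.7% in WT MEF. The H3K27me3 lists of WT MEF with dox (938 peaks) and of the iPS clones were the shortest, so a locus without a peak there is one where the mark was not detectable. H3K4me3 at 3 marker genes was checked against the labels. Col3a1, a collagen gene of fibroblasts, had a peak in WT MEF, Utx-KO MEF and Utx-KO MEF with dox, but none in WT MEF with dox. Nanog, a pluripotency factor, had peaks in both ESC lists and both iPS clones, and Pou5f1 in these 4 and in WT MEF with dox.

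**Figure D1:**
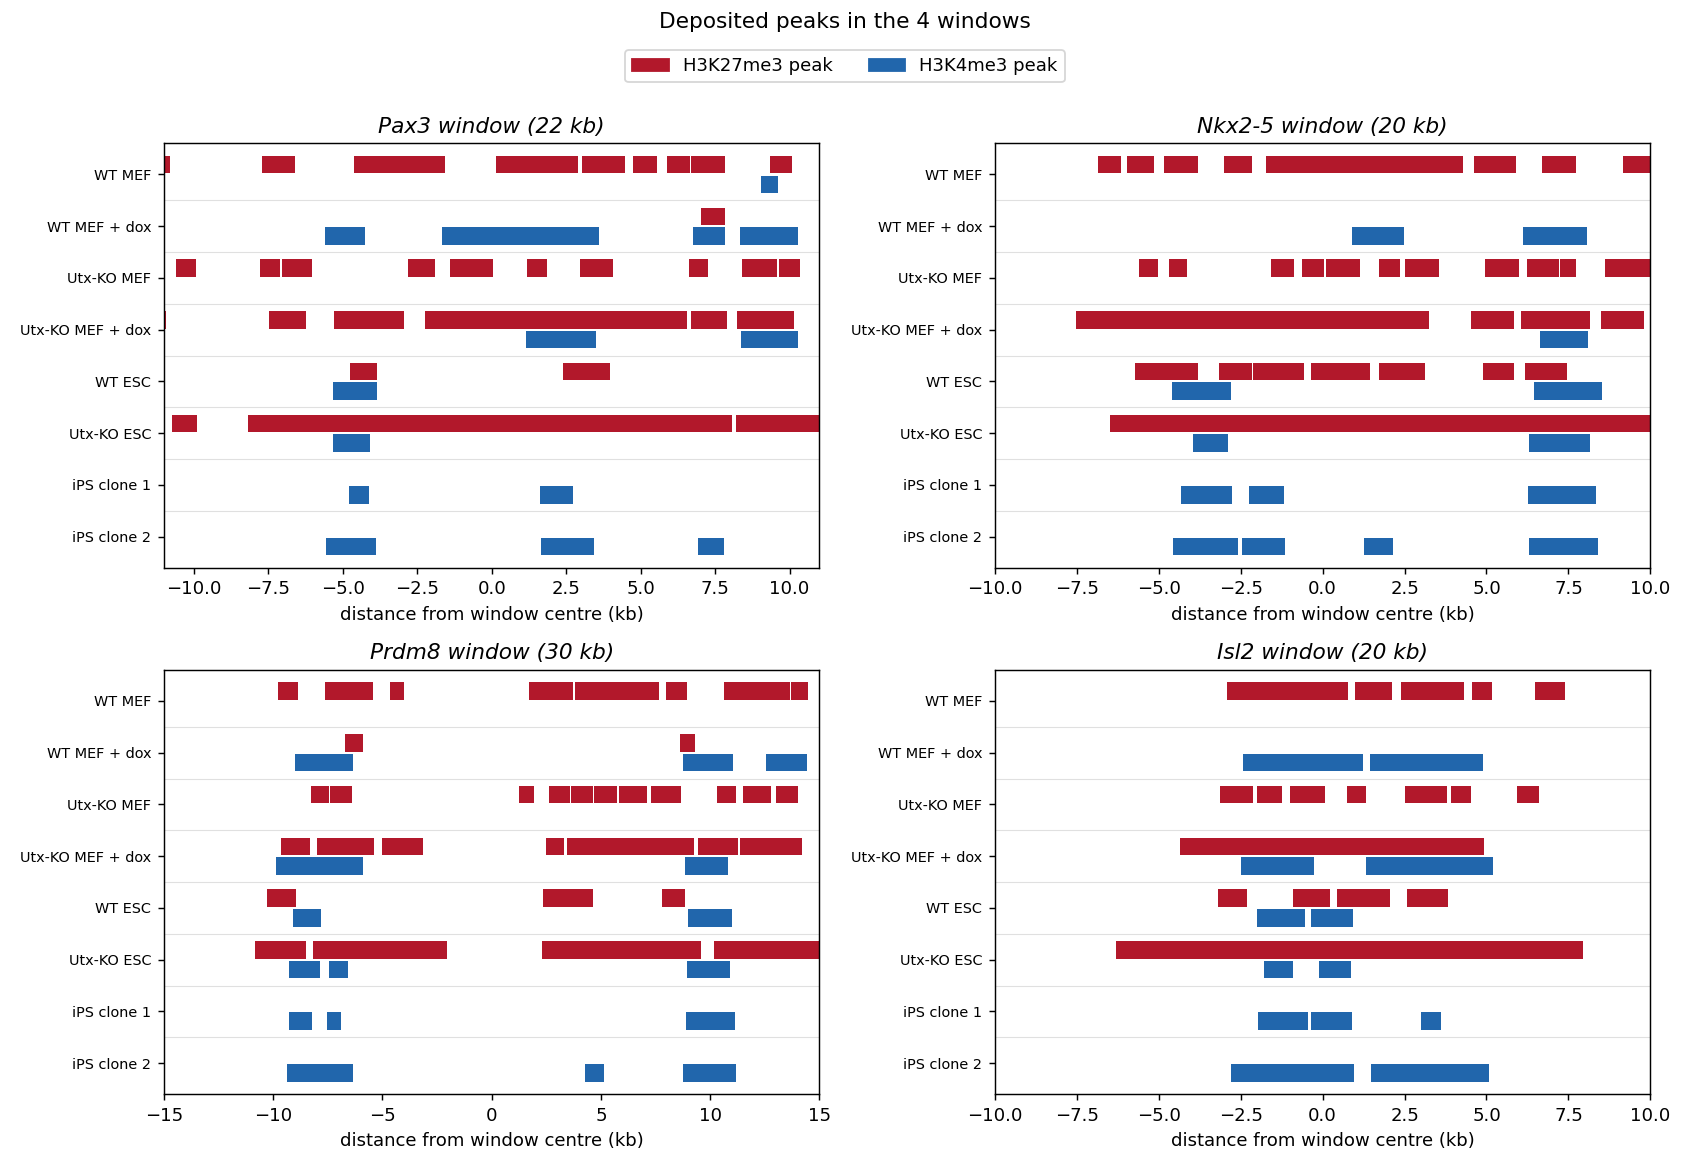
Peaks of H3K27me3 (red) and H3K4me3 (blue) in the 4 windows, one row per library; the x axis is the distance from the window centre in kb and peaks are cut at the window edges. Red bars fill much of each window in untreated MEF, Utx-KO MEF with dox and Utx-KO ESC, and are missing from both iPS clones.

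In untreated WT MEF all 4 loci lay under broad, high-scoring H3K27me3 and almost no H3K4me3. H3K27me3 covered 12.5 kb of the Nkx2-5 window (62.7%), 12.0 kb at Pax3 (54.5%), 14.4 kb at Prdm8 (48.1%) and 8.28 kb at Isl2 (41.4%). To place these values, the genome was divided into 20 kb tiles, and 2955 tiles held H3K27me3 in this list. Coverage as high as at Nkx2-5 was found in 0.102% of those tiles, as at Pax3 in 0.609%, as at Prdm8 in 1.15% and as at Isl2 in 1.93%. The median tile was covered to 4.2%.

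Single peaks at these loci were among the highest scoring of the WT MEF list. The Nkx2-5 peak at chr17:26978283-26984289 ranked 3 of 4760 (score 1540), and its 6007 bp made it the second widest peak of the list. At Prdm8, chr5:98608834-98612676 ranked 4 (1410), and at Pax3 chr1:78191141-78193902 ranked 8 (1008). The highest peak at Isl2 ranked 56, at a score of 609. These ranks are part of what chose the loci. H3K4me3 was limited to a 574 bp peak near one edge of the Pax3 window, with a score of 100, of which 0.254 kb was also under H3K27me3. An overlap of the marks was present in 7.75% of tiles with H3K27me3 in this state and in 4.7% in Utx-KO MEF. No locus could have an overlap in Utx-KO MEF, since no H3K4me3 peak was called in the windows there.

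Loss of Utx in untreated fibroblasts left H3K27me3 on all 4 loci. The covered length was 9.04 kb at Pax3 in Utx-KO MEF against 12.0 kb in WT MEF, 9.12 against 12.5 kb at Nkx2-5, 11.3 against 14.4 kb at Prdm8 and 5.99 against 8.28 kb at Isl2. On a log2 scale with 500 bp added to both lengths, the differences were -0.39, -0.44, -0.34 and -0.44. None of the 4 reached a 2-fold difference, the size used here to call a locus higher or lower. Over all tiles with the mark in either list, 32.8% were lower by at least 2-fold and 38% were higher. The median marked tile was covered to only 4.2% in WT MEF and 3.31% in Utx-KO MEF, where a single peak can decide the call. Since the loci were selected on strong H3K27me3, the contrast with tiles is no measure of their stability.

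The 4 windows held 40 H3K27me3 peaks in Utx-KO MEF and 31 in WT MEF. The whole lists differed in the same way, with 5708 peaks of a median width of 651 bp against 4760 of 831 bp. In the windows the widest Utx-KO peak was 1470 bp, and the highest scores were 371 to 489, against 609 to 1540 in WT MEF. Of the 31 WT MEF peaks, 24 met a peak of Utx-KO MEF, where 35.3% of all WT MEF peaks did so. Selection of the loci on strong H3K27me3 bears on this overlap too, so it supports nothing further. No window of Utx-KO MEF had an H3K4me3 peak. The only difference of 2-fold or more in H3K4me3 was thus the small Pax3 peak of WT MEF, and 6.81% of tiles with H3K4me3 were lower by this measure (7.73% by presence alone).

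With dox, WT fibroblasts carried H3K4me3 at all 4 loci, and little H3K27me3 was called there. H3K27me3 covered 0.794 kb at Pax3 and 1.47 kb at Prdm8, in 1 and 2 peaks whose scores were 51 to 54, and no peak was called at Nkx2-5 or Isl2. All 4 loci were lower by at least 2-fold than without dox (log2 -3.27 at Pax3, -4.70 at Nkx2-5, -2.92 at Prdm8 and -4.13 at Isl2). The same held for 75.8% of tiles with the mark in either list, and the mark was present without dox and absent with it in 74.9% of tiles and in 2 of the 4 loci. Of every 1000 bp under H3K27me3 in the genome, the 4 windows held 10.3 bp without dox, the state whose H3K27me3 helped to select them, and 3.52 bp with it.

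H3K4me3 with dox was widest at Pax3, at 9.63 kb, followed by 7.13 kb at Isl2, 6.79 kb at Prdm8 and 3.59 kb at Nkx2-5. All 4 loci were higher by at least 2-fold than without dox, as were 43.2% of tiles with H3K4me3. At 3 of the loci no peak had been called without dox, and 30.9% of tiles behaved in this way. The highest scores were those of the 5282 bp peak at Pax3, chr1:78189319-78194600 (1622, rank 6658 of 19689), and of the 3665 bp peak at Isl2, chr9:55387573-55391237 (1498). Prdm8 reached 761 and Nkx2-5 447. The coverage of the Pax3 window (43.8%) was matched by 1.52% of tiles with H3K4me3 and that of Isl2 (35.7%) by 3.51%, but that of Prdm8 by 14.4% and that of Nkx2-5 by 24.7%.

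H3K4me3 with dox lay in part where H3K27me3 was called without dox. Of the 31 H3K27me3 peaks of untreated WT MEF in the windows, 17 met an H3K4me3 peak with dox, against 37.9% of all 4760 peaks in that list. Both marks were used to select the loci, so this overlap supports nothing further. The share of H3K27me3 length under H3K4me3 of the dox-treated cells was 77.5% at Isl2, 46.5% at Pax3, 26.6% at Prdm8 and 21% at Nkx2-5. At Nkx2-5, the 6007 bp H3K27me3 peak of untreated cells met only a weak H3K4me3 peak with dox, at a score of 53. The stronger one, chr17:26986100-26988073, was centred 7.09 kb from the window centre.

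Utx-KO fibroblasts with dox had the broadest H3K27me3 of any fibroblast state at each of the 4 loci. It covered 15.6 kb at Pax3, 15.6 kb at Nkx2-5, 17.1 kb at Prdm8 and 9.28 kb at Isl2, or 46.4% to 77.8% of the windows. Untreated Utx-KO cells had 7 to 12 short peaks per window. With dox there were 1 to 8, including a long one in each window. Pax3 had 8808 bp at chr1:78188749-78197556 (score 1754, rank 3 of 4335), Isl2 9277 bp at chr9:55385654-55394930 (1643, rank 4), Nkx2-5 10788 bp at chr17:26972465-26983252 (949) and Prdm8 5802 bp at chr5:98608459-98614260 (1060). Peaks were wider throughout this list, with a median width of 1027 bp against 651 bp without dox.

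Against WT MEF with dox, all 4 loci were higher in H3K27me3 by at least 2-fold (log2 3.64 at Pax3, 5.00 at Nkx2-5, 3.16 at Prdm8 and 4.29 at Isl2), as were 76.2% of tiles. The mark was present in Utx-KO cells alone at 2 loci, Nkx2-5 and Isl2, and in 73.7% of tiles. When the Utx-KO list was reduced to its 938 highest scoring peaks, the size of the WT list, H3K27me3 still covered 14.4 kb at Pax3, 12.9 kb at Nkx2-5, 10.2 kb at Prdm8 and 9.28 kb at Isl2. Against untreated Utx-KO MEF the differences were smaller, between 0.58 and 0.75 on the log2 scale, and no locus reached 2-fold. By that measure 35% of tiles were higher and 36.8% lower. Of 40 peaks of untreated Utx-KO MEF in the windows, 37 met a peak with dox, against 40.8% in the whole list. Of the 31 peaks of untreated WT MEF, 30 met H3K27me3 of Utx-KO MEF with dox, against 46.2%. Selection on strong H3K27me3 set the loci apart from most tiles and peaks, so these overlaps and the lack of 2-fold differences support nothing further. The comparisons with and without dox and with and without Utx share their libraries and are not independent.

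H3K4me3 was also called with dox in Utx-KO fibroblasts, at lower scores and lower ranks than in WT cells with dox. It covered 4.27 kb at Pax3, 1.48 kb at Nkx2-5, 5.98 kb at Prdm8 and 6.08 kb at Isl2, where untreated Utx-KO MEF had no peak. Without dox these cells had 40 H3K27me3 peaks in the windows, and 14 of them met this H3K4me3, where the share over the whole list was 20.4%. As both marks helped to select the loci, this overlap supports nothing further. All 4 loci were higher by at least 2-fold, as were 46.8% of tiles, and 20.7% of tiles went from no peak to a peak. The highest score was 274 at Pax3, 79 at Nkx2-5, 328 at Prdm8 and 89 at Isl2, against 1622, 447, 761 and 1498 in WT cells with dox. Over the whole lists, a score of 100 or more was reached by 90.3% of Utx-KO and 85.8% of WT peaks. The part that depth plays in these scores was not tested. As a rank within its own list, counted from the highest score, the top peak stood at 77.3% of the Utx-KO list and 33.8% of the WT list at Pax3, at 91.8% and 36.7% at Isl2, at 93.5% and 62.2% at Nkx2-5, and at 75.1% and 53.3% at Prdm8.

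The covered length of H3K4me3 was lower by at least 2-fold in Utx-KO than in WT cells with dox at Pax3 (log2 -1.09) and Nkx2-5 (-1.05), and 15.7% of tiles were lower. No locus lost H3K4me3 altogether, as 15.2% of tiles did. At Prdm8 (-0.17) and Isl2 (-0.22) the lengths were similar. With equal numbers of peaks from both lists no locus passed 2-fold, and Pax3 stood at 4.27 kb in Utx-KO against 8.59 kb in WT cells. With peaks of score 100 or more alone, 3 loci were lower by at least 2-fold (Isl2, Nkx2-5 and Pax3). The 5282 bp Pax3 peak of WT cells was met by a 2368 bp peak with a score of 76 in Utx-KO cells, and the WT peaks at chr1:78185400-78186755 and chr1:78197770-78198816 had no counterpart. In all, 7 of 11 H3K4me3 peaks of WT MEF with dox in the windows met one of Utx-KO MEF with dox (78.6% of the whole list did), and all 7 Utx-KO peaks met one of WT cells (94.3%). All 11 WT peaks met H3K27me3 in Utx-KO MEF with dox, against 10.7% of all 19689 peaks. The windows were selected on both of these marks and the whole list was not, so this overlap follows from the choice and supports nothing further.

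**Figure D2:**
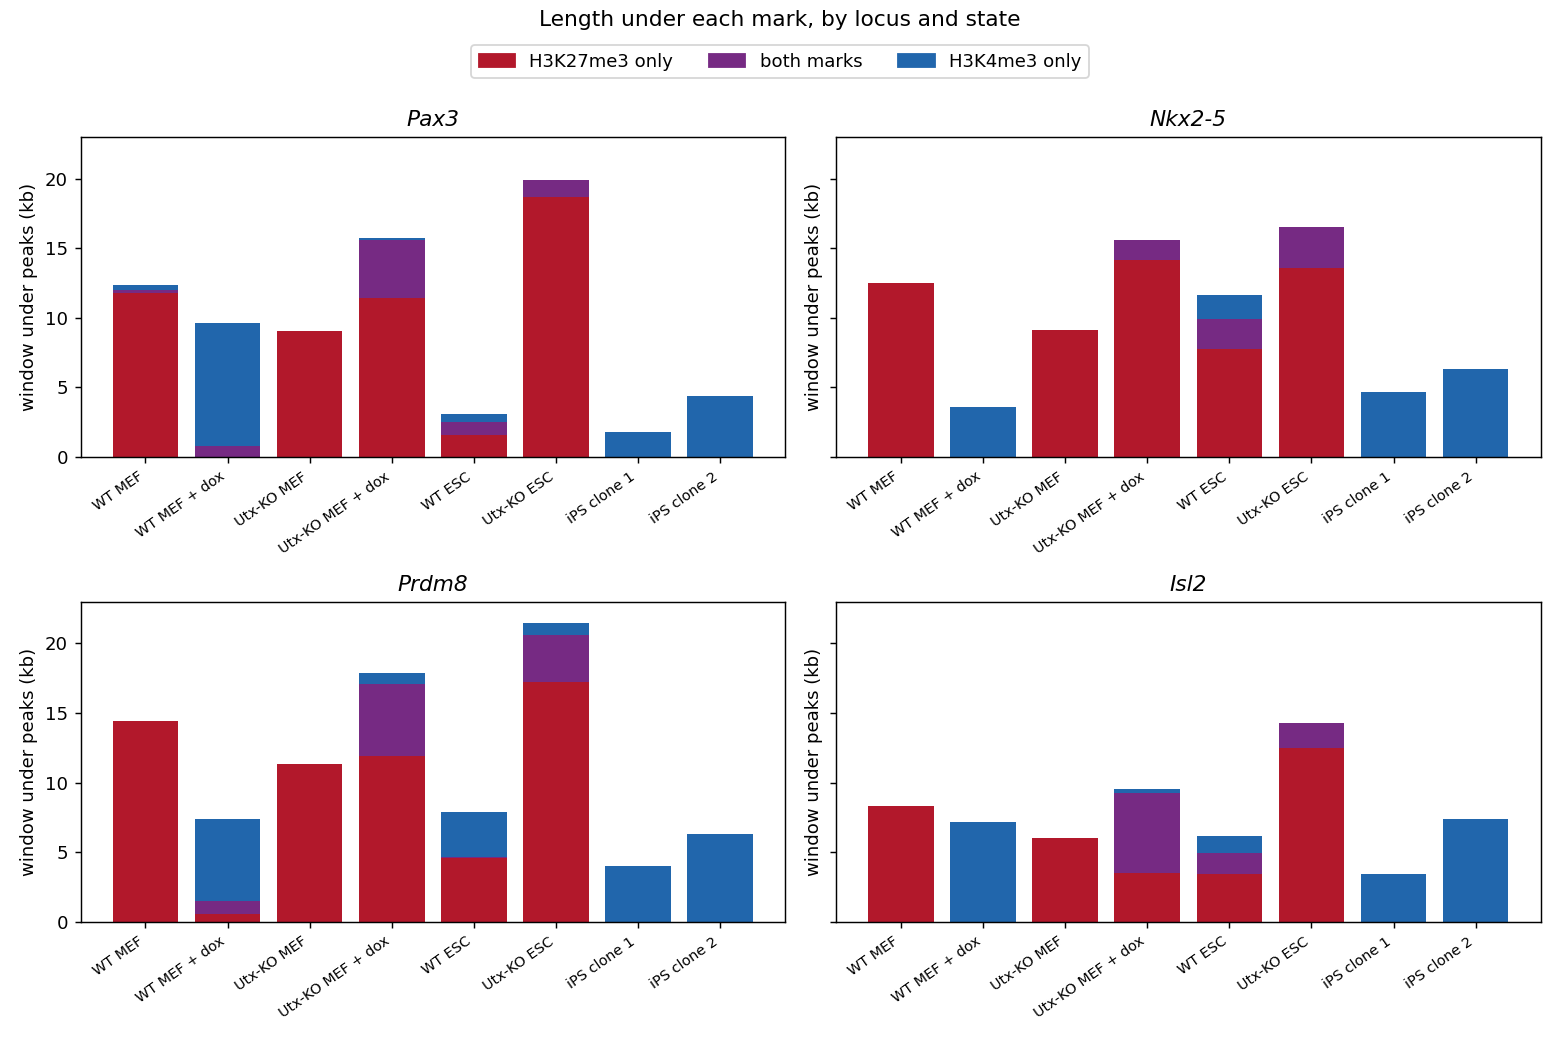
Length of each window (kb, y axis) under H3K27me3 only, both marks or H3K4me3 only, stacked for each of the 8 libraries per mark. Purple, the overlap of both marks, reaches 5.81 kb at Isl2 in Utx-KO MEF with dox and is 0 in both iPS clones.

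Both marks therefore overlapped at all 4 loci in Utx-KO MEF with dox. The overlap was 4.15 kb at Pax3, 1.48 kb at Nkx2-5, 5.22 kb at Prdm8 and 5.81 kb at Isl2, which was 87.2% to 100% of the H3K4me3 length. Tiles with H3K27me3 in that state shared at least 1 bp with H3K4me3 in 53.3% of cases, but these tiles were not selected on both marks as the loci were. In WT MEF with dox the overlap was 0.781 kb at Pax3 and 0.891 kb at Prdm8, and 26.4% of tiles with H3K27me3 had one. In a bulk library, overlapping marks on the same chromatin and a mixture of cells with one mark or the other cannot be told apart.

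In WT ESC all 4 loci carried both marks. H3K27me3 covered 9.93 kb at Nkx2-5 in 7 peaks, 4.91 kb at Isl2 in 4, 4.68 kb at Prdm8 in 3 and 2.49 kb at Pax3 in 2, with highest scores of 168 to 217. These scores were high for the list, with ranks of 93 (Prdm8), 122 (Nkx2-5), 155 (Isl2) and 213 (Pax3) of 5679. The order of the loci differed from that in WT MEF: Nkx2-5 again had the largest covered share (49.7%, matched by 0.319% of marked tiles), while Pax3 had the smallest (11.3%, matched by 14.4%). Compared with WT MEF, Pax3 (log2 -2.07) and Prdm8 (-1.53) were lower by at least 2-fold, as were 30.9% of tiles, and Nkx2-5 (-0.32) and Isl2 (-0.70) were not. None of the 4 was without the mark in WT ESC, as 30.6% of tiles were. With peaks of score 100 or more alone, all 4 loci were lower in WT ESC. Of 31 WT MEF peaks in the windows, 16 met H3K27me3 in WT ESC, against 22.5% of the list. Because the loci were selected on strong H3K27me3, their presence in WT ESC and this overlap support nothing further.

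H3K4me3 in WT ESC covered 3.88 kb at Nkx2-5, 3.31 kb at Prdm8, 2.75 kb at Isl2 and 1.46 kb at Pax3, with highest scores of 92 to 300. Nkx2-5, Prdm8 and Isl2 were higher than WT MEF by at least 2-fold, and 40.3% of tiles were. These 3 had no peak at all in WT MEF, a pattern of 31.3% of tiles. At Pax3 the lengths were 1.46 and 0.574 kb, in different parts of the window. The overlap of both marks was 2.17 kb at Nkx2-5, 1.47 kb at Isl2, 0.888 kb at Pax3 and 0.138 kb at Prdm8, and 30% of tiles with H3K27me3 had an overlap. At Prdm8 the marks thus lay mostly side by side, with 4.17% of the H3K4me3 length under H3K27me3. The tiles were not selected on strong H3K27me3 as the loci were, so the contrast in overlap supports nothing further. Of the 7 H3K4me3 peaks of WT ESC, 6 met a peak of WT MEF with dox, against 76.2% of the list. H3K4me3 with dox helped to select the loci, so this overlap supports nothing further either.

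Utx-KO ESC had long H3K27me3 domains over all 4 windows. A single peak of 16876 bp, chr17:26973513-26990388, covered 82.4% of the Nkx2-5 window, and a single peak of 14268 bp, chr9:55383692-55397959, covered 71.3% of the Isl2 window. The latter ranked 35 of 36231 by score (2559). Pax3 was covered to 90.3%, mainly by a 16234 bp peak with the lower score of 318, and the next peak ran 4.2 kb beyond the window. Prdm8 was covered to 68.6% in 4 peaks, with scores of up to 1732 and a gap across the window centre. At the centre itself no list of any state had an H3K27me3 peak, but peaks of WT MEF and Utx-KO MEF reached into the gap.

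Against WT ESC the covered length was higher by at least 2-fold at Pax3 (19.9 against 2.49 kb, log2 2.77), Prdm8 (20.6 against 4.68 kb, 2.02) and Isl2 (14.3 against 4.91 kb, 1.45). At Nkx2-5 it was 16.5 against 9.93 kb (0.70). Since 92% of tiles were higher by this measure, these 3 of 4 loci did not stand out from the rest of the Utx-KO ESC list. All 4 had the mark in both ESC lists, while 78.9% of tiles had it in Utx-KO ESC alone. All 16 H3K27me3 peaks of WT ESC in the windows met a peak in Utx-KO ESC, and 78.6% of the whole list did. Because the loci were selected on strong H3K27me3, both contrasts follow in part from the choice and support nothing further.

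H3K4me3 differed little between Utx-KO and WT ESC at the 4 loci. It covered 1.23 kb at Pax3, 2.91 kb at Nkx2-5, 4.28 kb at Prdm8 and 1.84 kb at Isl2, with log2 differences from -0.47 to 0.32. No locus passed 2-fold. Few tiles did so either (8.69% lower and 8.32% higher), so the 4 loci did not stand out from them. All 7 peaks of WT ESC met a peak in Utx-KO ESC, against 87.4% overall. The H3K4me3 peaks of Utx-KO ESC lay wholly inside H3K27me3 at Pax3, Nkx2-5 and Isl2 and to 79.6% at Prdm8. An overlap was present in 23.3% of the tiles with H3K27me3. The median such tile was covered to 13.4%, while the windows, selected on strong H3K27me3, were covered to 68.6% to 90.3%. The contrast in overlap therefore supports nothing further.

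The aberrant iPS clones had H3K4me3 at all 4 loci and no H3K27me3 peak in any window. An overlap of both marks was thus not possible in the windows. Tiles with H3K27me3 had both marks in 7.41% of cases in clone 1 and 3.83% in clone 2, which is no comparison for windows without H3K27me3. H3K4me3 covered 1.81 kb in clone 1 and 4.38 kb in clone 2 at Pax3, 4.67 and 6.31 kb at Nkx2-5, 3.98 and 6.30 kb at Prdm8, and 3.42 and 7.36 kb at Isl2. The highest scores were 433 and 874 at Pax3, 865 and 961 at Nkx2-5, 1297 and 1584 at Prdm8, and 1125 and 1359 at Isl2. Those of WT ESC were 92 to 300. Scores depend on the depth of each library, so ranks within each list are given as well. At Isl2 the highest peak stood at 78.8% of the WT ESC list, 39.1% of the clone 1 list and 37.6% of the clone 2 list, counted from the highest score. The same positions were 81.5%, 60.8% and 43.9% at Pax3, and 56.7%, 35.2% and 35.2% at Prdm8. Nkx2-5 differed least, at 56.3%, 45.7% and 42.7%. Clone 2 covered more than clone 1 at each locus, but its whole H3K4me3 list was also longer, at 55.5 against 34.9 Mb. Of every 1000 bp covered, the windows held 0.439 bp in clone 2 and 0.398 bp in clone 1.

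Compared with WT ESC, no locus was higher by at least 2-fold in clone 1 (log2 0.23 to 0.27), and 11.1% of tiles were. In clone 2, Pax3 (1.31) and Isl2 (1.27) were, as were 25.8% of tiles (25.8% by presence alone). All 7 H3K4me3 peaks of WT ESC in the windows were met in both clones, against 84.4% of the whole list in clone 1 and 92.6% in clone 2. H3K27me3 was lower by at least 2-fold than in WT ESC at all 4 loci in both clones, but so were 90.9% and 79.9% of tiles. By presence alone these shares were 97% and 85.1%. Among equally many top-scoring WT ESC peaks, 135 for clone 1, WT ESC itself had H3K27me3 only at Nkx2-5 (1.8 kb) and Prdm8 (2.3 kb). Among 737, the number in clone 2, WT ESC had it at all 4 loci (1.58 kb at Pax3, 4.72 kb at Nkx2-5, 3.63 kb at Prdm8 and 1.63 kb at Isl2), where clone 2 had none.

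**Figure D3:**
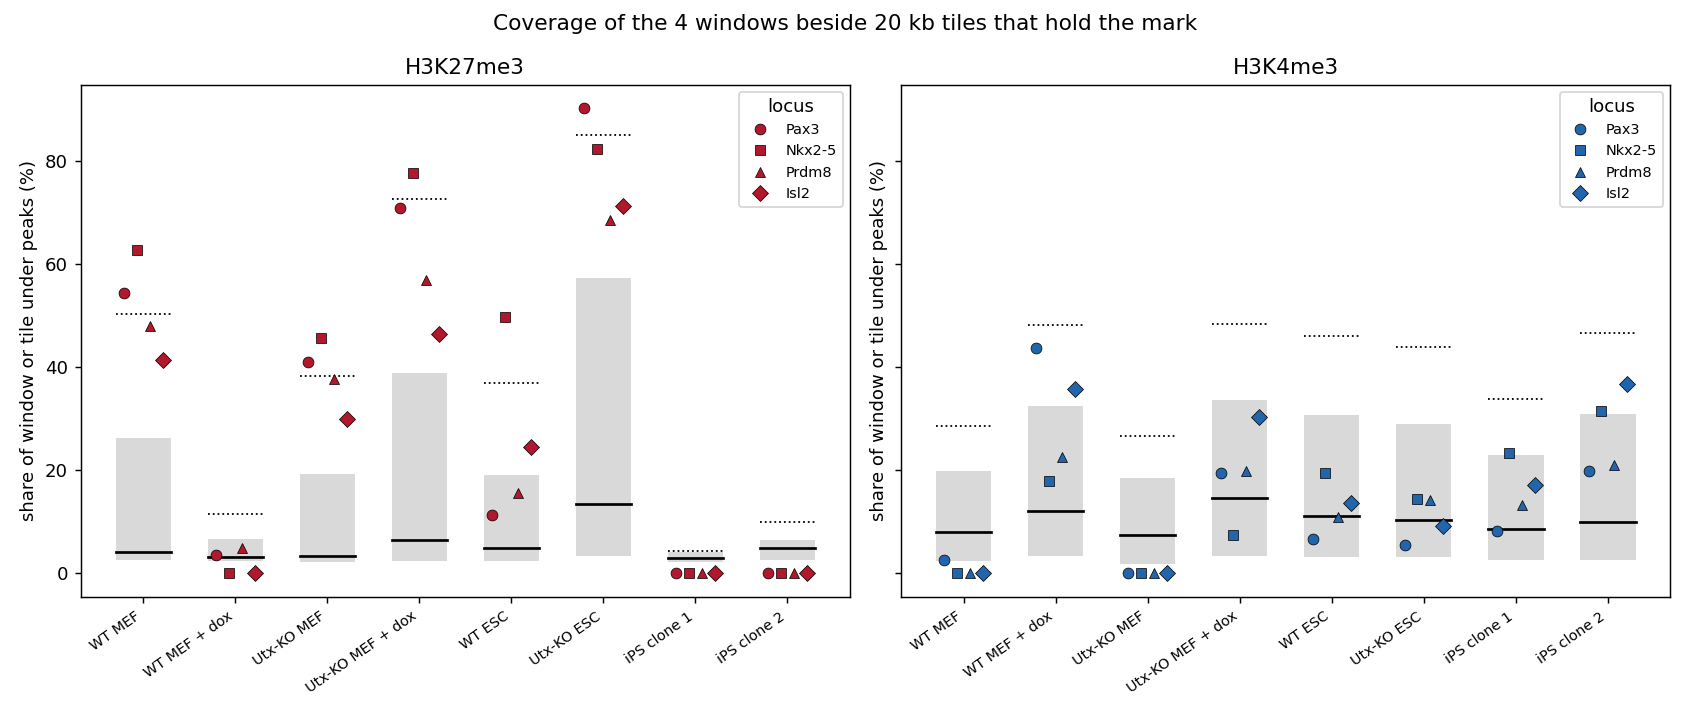
Share of each window under peaks (%, y axis; symbols are the 4 loci) beside all 20 kb tiles that hold the mark in the same list; grey bars run from the 5th to the 95th percentile of tiles, solid lines are medians and dotted lines the 99th percentile. For H3K27me3 the loci lie above the grey bars in untreated MEF, Utx-KO MEF with dox and Utx-KO ESC; for H3K4me3 most lie inside them.

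Across the 8 lists the H3K4me3 peaks fell into 14 sites, formed by joining overlapping peaks. Sites shared by all states other than untreated MEF numbered 4, and each was present in 6 lists. They were chr17:26986100-26988522 at Nkx2-5, chr5:98595132-98599128 and chr5:98613743-98616162 at Prdm8, and chr9:55387214-55391237 at Isl2. The Prdm8 window therefore had a constant pair of H3K4me3 sites, near either end of the domain, on both sides of its strongest H3K27me3 peak in WT MEF. At Pax3 no site reached 6 lists.

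Other sites were present in some states and not in others at each of the 4 loci. The Pax3 site chr1:78185400-78187142 carried H3K4me3 in both ESC lists, both clones and WT MEF with dox, where its score was 141. It had none in untreated WT MEF or in either Utx-KO MEF list. The Pax3 site that was strongest in WT MEF with dox, centred 0.96 kb from the window centre, was present in both clones and in Utx-KO MEF with dox but in neither ESC list. At Nkx2-5, chr17:26975399-26977411 carried H3K4me3 in both ESC lists and both clones and in no fibroblast list. The adjoining site chr17:26977531-26978845 was found in the iPS clones only, with scores of 453 and 475. At Isl2, the site chr9:55391334-55395196 was present in both dox-treated MEF lists and both clones, and in neither ESC list. Prdm8 had a site in WT MEF with dox only, chr5:98617553-98619413, and one in iPS clone 2 only, chr5:98609256-98610128, with scores of 161 and 53. All 14 sites had H3K27me3 in at least 4 of the 8 lists. The windows were selected on strong H3K27me3, so this count follows from the choice, and the share over other H3K4me3 sites was not computed.

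UTX was mapped in WT MEF, WT MEF with dox and WT ESC. The windows held 1 UTX peak, at Nkx2-5 in WT ESC, chr17:26972786-26973375, with a score of 53 and rank 4695 of 5076. It met no peak of either histone mark in WT ESC. A UTX peak was present in 3.54% of all tiles in WT ESC and in 4.63% of those with H3K27me3. No UTX peak was called at the 4 loci in WT MEF or WT MEF with dox, where 0.282% and 2.69% of all tiles, and 0.44% and 4.65% of those with H3K27me3, had one. With lists of 372 to 5076 peaks, UTX at these loci was otherwise not detectable.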

How the data were processed

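The authors deposited 1 peak list per immunoprecipitated sample, 19 in all, with the position and a score of each peak. What the deposited score measures is not given in the sources used here. Its lowest value was 50. Among tools, MACS 1.4.1, Bowtie 0.12.5 and CASAVA 1.8.2 are named in the submitters' processing notes, and mm9 is the build. Settings and controls are not given in the sources used here. Positions are 1-based, and 1 peak off the numbered chromosomes, X and Y was left out. The 8 whole-cell extracts were not analysed here.

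Peaks overlapping a window by at least 1 bp were cut to it, and covered length, peak number and highest score were taken. All 4 genes are named. A locus was called higher or lower at 2-fold in covered length + 500 bp. The same call over 20 kb tiles holding the mark in either list gave the background. The Pax3 (22 kb) and Prdm8 (30 kb) windows are longer than a tile, so covered shares of length were used to rank windows among tiles. The calls of higher, lower, presence and overlap used bp, with no correction for window length. Alternatives were a score of at least 100, equal peak numbers, windows widened by 5 kb, peak midpoints, presence alone, other tile sizes, 500 bp of shared marks and each iPS clone alone. Members, windows and lists were chosen with earlier results of these data known. Marker gene positions were taken from general knowledge of mm9. Other Polycomb target genes were not analysed here for want of an mm9 annotation. Lengths and overlaps matched bedtools 2.31.1 in 20 of 20 simulated sets. Python 3.11.15, numpy 2.4.6, scipy 1.17.1 and matplotlib 3.10.9 were used.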

Additional observations from a re-analysis of the deposited data

Results flagged for a closer look

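In the pairs of contrasts below, the log2 changes of H3K27me3 had opposite signs at each of the 4 loci. The changes with dox in Utx-KO MEF and with Utx loss in untreated MEF were below the size used here to call a locus higher or lower. At Nkx2-5 the change with Utx loss in ESC was below it too. Opposite signs are therefore not opposite calls. The differences were not tested, since each rests on 1 library per state.

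Dox came with less H3K27me3 in WT MEF and with somewhat more in Utx-KO MEF, where no locus was called higher. The difference between the log2 changes was -4.03 at Pax3 (-3.27 in WT and 0.75 in Utx-KO), -5.44 at Nkx2-5 (-4.70 and 0.74), -3.49 at Prdm8 (-2.92 and 0.58) and -4.73 at Isl2 (-4.13 and 0.59). The whole lists moved in the same directions: covered length was 4.59 Mb in WT MEF and 0.643 Mb with dox, and 4.2 Mb in Utx-KO MEF and 6.41 Mb with dox. Of every 1000 bp covered, the windows held 10.3 and 3.52 bp in WT cells and 8.45 and 8.97 bp in Utx-KO cells. The loci were selected on H3K27me3 of these states, so these shares support nothing further. The part that the weak WT list with dox plays in this was not tested.

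Utx loss came with slightly less H3K27me3 in untreated MEF, where no locus was called lower. In ESC it came with more, and Pax3, Prdm8 and Isl2 were called higher but Nkx2-5 was not. The difference was -3.16 at Pax3 (-0.39 in MEF and 2.77 in ESC), -1.14 at Nkx2-5 (-0.44 and 0.70), -2.36 at Prdm8 (-0.34 and 2.02) and -1.89 at Isl2 (-0.44 and 1.45). The whole H3K27me3 list spanned 6.2 Mb in WT ESC, against 79.8 Mb without Utx. As a share of the list, the windows held 0.893 bp of every 1000 in Utx-KO ESC and 3.55 in WT ESC. In a list of 79.8 Mb, even fully covered windows of 20 to 30 kb each could not reach 3.55. The lower share was thus fixed by list size and gives no direction for the loci.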

How the results depend on the processing

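Widening the windows by 5 kb or using peak midpoints moved none of the 39 and 28 counts of loci recomputed. Counting presence alone gave 2 loci in place of 4 for H3K27me3 lower with dox in WT MEF and for H3K27me3 higher in Utx-KO than WT MEF with dox. It gave 0 for H3K27me3 higher in Utx-KO than WT ESC, for H3K27me3 lower in WT ESC than WT MEF, and for H3K4me3 lower in Utx-KO than WT MEF with dox. With equal peak numbers the last was also 0, and H3K27me3 was lower in both iPS clones than in WT ESC at 2 loci. At a score of at least 100, H3K27me3 was lower in WT ESC than WT MEF at 4 loci, and H3K4me3 was lower in Utx-KO than WT MEF with dox at 3 in place of 2. H3K4me3 was then higher in Utx-KO MEF with dox than without at 2 loci, higher in both clones than in WT ESC at 2, higher in Utx-KO than WT ESC at 1 (Pax3) and lower in WT ESC than WT MEF at 1 (Pax3). Both marks overlapped at that score at 0 loci in WT MEF with dox, at 2 in Utx-KO MEF with dox and at 2 in WT ESC, and UTX was found at 0 in WT ESC. With 500 bp of shared marks required, the overlap in WT MEF was at 0 loci. With 1 clone at a time, H3K4me3 was higher than in WT ESC at 0 to 2 loci. The threshold and the shorter lists remove peaks by construction, and other causes were not tested. Tiles of 10 or 50 kb gave other background shares, such as 73.9% in place of 75.8% for H3K27me3 lower with dox in WT MEF. Unknown depth limits every absence. No paired analysis was possible because replicate numbers only name the 2 iPS clones and no comparison was tested.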
